A study of Cyprinus carpio with 9 samples.

Results

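The genes described here are 51 genes of common carp (Cyprinus carpio) liver whose messenger RNA lay lower in libraries 1 and 2 of a mixed diet than in every library of both single diets. The library labelled mixed diet 3 was not used to choose them. It lay below all single-diet libraries in 23 of the 51 (45.1%) and above all in 22 (43.1%). Over the 5875 genes that reached the level required in the single-diet libraries, these shares were 42.8% and 26.3%. The liver libraries came from adult fish fed earthworm with duckweed in a ratio of 1:1 (mixed diet), duckweed alone, a small floating water plant, or earthworm alone, an animal food. Each diet had 3 libraries, 9 in all, made by sequencing liver messenger RNA. Per the labels, the fish weighed 492.6 ± 30 g, were divided into groups of 90, and were fasted for 24 h before sampling. The labels name no strain and no number of fish per library, so the spread between libraries may in part be technical, and p-values measure that spread alone.

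The members were chosen from the measured values, with mixed-diet library 3 left out. FPKM, the fragments of a gene relative to the length of its model and the size of the library, was scaled to a common median in the other 8 libraries. A gene was taken if its lowest value in the 6 single-diet libraries was 3 or more and at least 1.5 times the higher of mixed-diet libraries 1 and 2. Of the 42997 gene IDs, 5875 reached the level of 3 in all 6 single-diet libraries, and 53 of these, 0.902%, met the fold as well. None of the 53 was among the 100 most abundant genes, and 2 were dropped because duckweed and earthworm differed 2-fold without overlap, which left 51. That these genes are low in mixed-diet libraries 1 and 2 follows from the choice and is given as a description, with no support drawn from it.

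The liver takes up most absorbed nutrients and is the main site of bile acid, plasma protein and much lipid synthesis, and many of its transcripts follow the food. Common carp is an omnivore with a duplicated genome, so many of its genes occur as pairs of similar sequence. A gene lower on a mixture than on both of its components lies outside the range that an average of the 2 foods would give. The files give IDs without names, and the RefSeq carp gene table matched 0 of the 42997, so no function can be given to any member. For the same reason liver identity could not be checked with marker genes. In bulk tissue, fewer cells of a type and less RNA per cell cannot be told apart.

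The library labelled mixed diet 3 stood apart from the rest. Its log2 values correlated at 0.45 to 0.52 with the other 8 libraries across 21542 genes, against 0.85 to 0.94 among those 8. Those 21542 genes were chosen by their levels in the other 8 libraries alone. The 50 genes with the highest mean over the 8 libraries held 1.26% of its reads and 34.6% to 49.2% of the reads of the others. These 50 were ranked without mixed-diet library 3, so a lower share there is in part set by the ranking. Library totals ranged from 9915585 to 11883466 reads. The members took 0.0935% and 0.0803% of the reads in mixed-diet libraries 1 and 2 and 2.05% in mixed-diet library 3. They took 0.296% to 0.339% on duckweed and 0.300% to 0.357% on earthworm. In mixed-diet library 3 a single member, CAFS_CommonC_G_014452, held 135381 of the 10631569 reads, so the share there is not spread evenly over the members.

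Gene CAFS_CommonC_G_004457 had the largest gap between the lowest single-diet value and the higher of mixed-diet libraries 1 and 2. It was at 1.08 and 1.07 scaled FPKM in mixed-diet libraries 1 and 2, at 6.08, 15.9 and 9.41 in duckweed libraries 1 to 3, and at 40.1, 4.26 and 4.09 in earthworm libraries 1 to 3. The mixed-diet pair was nearly equal, while earthworm library 1 was far above every other single-diet library. These levels rested on 13 and 14 reads in mixed-diet libraries 1 and 2, 100, 245 and 126 on duckweed, and 363, 53 and 61 on earthworm. Mixed-diet library 3 was at 34.5 scaled FPKM, next to earthworm library 1 and not to the other mixed-diet libraries.

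Gene CAFS_CommonC_G_001333 came second and was the more abundant of the 2. Its levels were 13.9 and 12.1 scaled FPKM in mixed-diet libraries 1 and 2, 154, 175 and 37.3 on duckweed and 210, 91.5 and 171 on earthworm. Duckweed library 3 was the lowest of the 6, and still 2.69 times the higher mixed-diet value. In mixed-diet library 3 the gene had 0 reads, which allows a level of up to 0.231 scaled FPKM (3 reads; counting error only).

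The most abundant members were CAFS_CommonC_G_044624 and CAFS_CommonC_G_037657. CAFS_CommonC_G_044624 was at 269 and 80.7 scaled FPKM in mixed-diet libraries 1 and 2, at 406, 429 and 680 on duckweed and at 1294, 699 and 720 on earthworm. Mixed-diet library 1 was nearer to the lowest duckweed library than to mixed-diet library 2. CAFS_CommonC_G_037657 was at 137 and 95.1 scaled FPKM in mixed-diet libraries 1 and 2, at 477, 416 and 226 on duckweed and at 267, 366 and 318 on earthworm. Duckweed enclosed the whole earthworm range in this gene. In mixed-diet library 3 the levels of the 2 genes were 1.48 and 0.54 scaled FPKM, on 46 and 23 reads, far below every other library.

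The members with the least spread over the single diets were CAFS_CommonC_G_074023 and CAFS_CommonC_G_026623, with coefficients of variation of 11.1% and 11.5% over 6 libraries. CAFS_CommonC_G_074023 was at 1.90 and 1.63 scaled FPKM in mixed-diet libraries 1 and 2, against 3.33 ± 0.48 on duckweed and 3.56 ± 0.32 on earthworm (SD, n = 3 each). CAFS_CommonC_G_026623 was at 4.97 and 29.2 scaled FPKM in mixed-diet libraries 1 and 2, against 69.5 ± 8.79 on duckweed and 72.4 ± 9.05 on earthworm (SD, n = 3 each). The 6 single-diet libraries of the second gene lay between 60.6 and 79.7, so its single diets were close while its mixed-diet pair was not. Mixed-diet library 3 took opposite sides in these 2 genes, at 17.9 scaled FPKM in the first and 1.07 in the second.

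**Figure D1:**
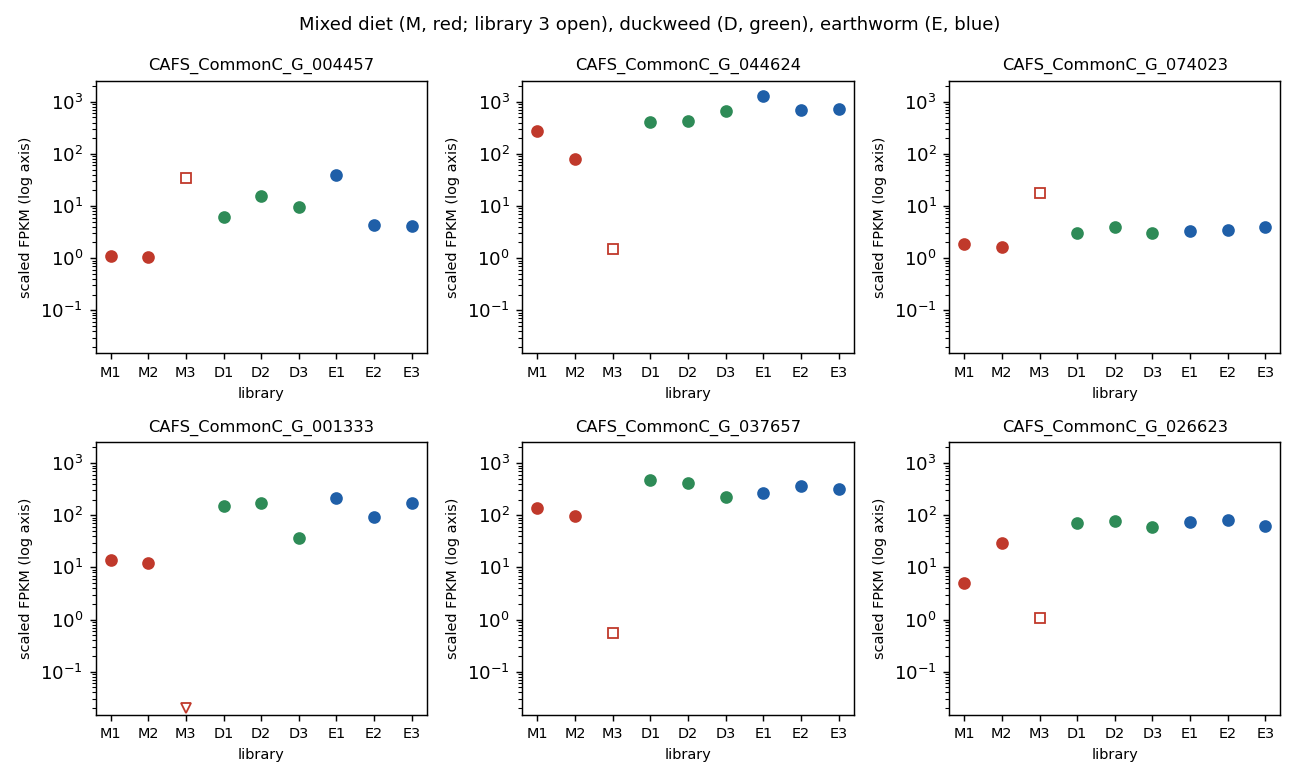
Scaled FPKM (log axis) of 6 members in each of the 9 libraries, each point 1 library: M, mixed diet (red, library 3 as an open square, or an open triangle at 0.02 where it had 0 reads); D, duckweed (green); E, earthworm (blue). Mixed-diet libraries 1 and 2 lie below all duckweed and earthworm points in each panel, as the choice requires, and mixed-diet library 3 lies above them in CAFS_CommonC_G_074023, at 17.9, and below them in CAFS_CommonC_G_026623, at 1.07.

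At the edge of the choice, CAFS_CommonC_G_022092 was just inside the fold of 1.5, with a ratio of 1.5009, and CAFS_CommonC_G_071419 just outside it, with 1.4975. CAFS_CommonC_G_022092 was at 2.48 and 4.99 scaled FPKM in mixed-diet libraries 1 and 2, at 16.05, 7.49 and 11.2 on duckweed and at 14.2, 9.56 and 8.36 on earthworm. CAFS_CommonC_G_071419 was at 3.35 and 2.61 scaled FPKM in mixed-diet libraries 1 and 2, at 5.83, 5.15 and 5.68 on duckweed and at 7.93, 5.27 and 5.02 on earthworm. The gene outside the fold thus had the narrower spread within each diet.

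Over all 51 members the ratio of the lowest single-diet value to the higher mixed-diet value ran from 1.501 to 3.77 with a median of 1.64. It was 2 or more in 8 members and under 1.6 in 17. By means, the single-diet level was 1.92 to 12.3 times that of mixed-diet libraries 1 and 2, with a median of 2.95. The mean of mixed-diet libraries 1 and 2 had a median of 3.45 scaled FPKM over the members (range 1.08 to 175), and the single-diet mean a median of 10.5 (range 3.44 to 705). Over the 5875 genes the median single-diet mean was 11.3, close to that of the members. Of the members, 24 had a single-diet mean under 10 scaled FPKM and 7 had 50 or more.

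Reads were few behind the low values. Mixed-diet libraries 1 and 2 together held 9 to 5577 reads per member, with a median of 140, and 20 of the 51 had under 100. Members are low in these 2 libraries by choice. No such count is given over the 5875 genes, so it is not read as a trait of the members. Gene models of the members, recovered from the steps of the FPKM values, had a median length of 1632 bases (range 322 to 6336), against 1791 bases over the 5875 genes.

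Mixed-diet libraries 1 and 2 were compared with each other, since the rule uses only the higher of them. They lay within 1.5 times of each other in 34 of the 51 members, 66.7%, against 66.4% of the 5875 genes, and library 2 was the higher in 27 of the 51, against 49.9%. The widest gap was in CAFS_CommonC_G_040125, at 1.601 and 42.7 scaled FPKM in mixed-diet libraries 1 and 2, on 7 and 203 reads. Its single-diet libraries were at 121, 182 and 120 scaled FPKM on duckweed and 115, 104 and 159 on earthworm. Both mixed-diet values were below all 6, but they were 26.7 times apart, a wider gap than among the single-diet libraries.

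In the limma fit over the 8 libraries, 0 of 21542 genes (0%) passed an adjusted p of 0.05 for the mixed diet against the mean of both single diets. At an unadjusted p under 0.05, 755 genes (3.5%) were lower and 570 (2.65%) higher. All 51 members were among the 755, which the choice of members brings about, and their adjusted p lay between 0.556 and 0.784 (limma, Benjamini-Hochberg over all genes tested). Their log2 fold changes had a median of -1.28 (range -3.63 to -0.68) in log2(scaled FPKM + 1), a scale that shrinks the changes of low genes. Over all genes tested the median was -0.007. With mixed-diet library 2 left out, limma called 1 gene, CAFS_CommonC_G_040125, lower on the mixed diet. That fit holds 1 mixed-diet library, library 1, which is assumed to vary like the single-diet libraries, and the rule had used its low value in this gene, so nothing is read from the call.

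Mixed-diet library 3 was the only mixed-diet library that had no part in the choice. Its values are set here against the 6 single-diet libraries, whose lowest value the rule used. The shares below and above them are therefore a description and not independent of the choice. Mixed-diet library 3 did not show 1 common level for the members. In 23 of 51 members (45.1%) it was below all 6 single-diet libraries, in 22 (43.1%) above all 6, and in 6 (11.8%) within their range. Over the 5875 genes the shares were 42.8% below, 26.3% above and 30.9% within. The share of members below was thus near that of all genes, and no replicate error can be given for a single library.

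The levels in mixed-diet library 3 spread widely on both sides. It lay 5 times or more above the highest single-diet library in 8 members (15.7%), against 1.69% of the 5875 genes. It lay 5 times or more below the lowest in 14 members (27.5%), against 13.7%. At least 1.5 times below the lowest, the fold used for the choice, it was found in 18 members (35.3%), against 29.3%. With mixed-diet library 3 counted along with the other mixed-diet libraries, these 18 remained of the 51. The correlation and abundant-gene shares given above place this library apart over genes chosen without it. Their part in the members' values was not tested.

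The highest values of that library among the members were in CAFS_CommonC_G_022092 and CAFS_CommonC_G_014452. CAFS_CommonC_G_022092, the gene just inside the fold, was at 1405 scaled FPKM in mixed-diet library 3 on 18096 reads, 87.5 times its highest single-diet library. CAFS_CommonC_G_014452 was at 3556 scaled FPKM there on 135381 reads, against 7.55 and 19.7 in mixed-diet libraries 1 and 2. The same gene was at 37.2, 30.5 and 29.7 scaled FPKM on duckweed and at 40.5, 38.9 and 42.4 on earthworm, which left the 2 single diets close together and without overlap. At the other end, CAFS_CommonC_G_001333 had 0 reads and CAFS_CommonC_G_040125 1 read in mixed-diet library 3.

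**Figure D2:**
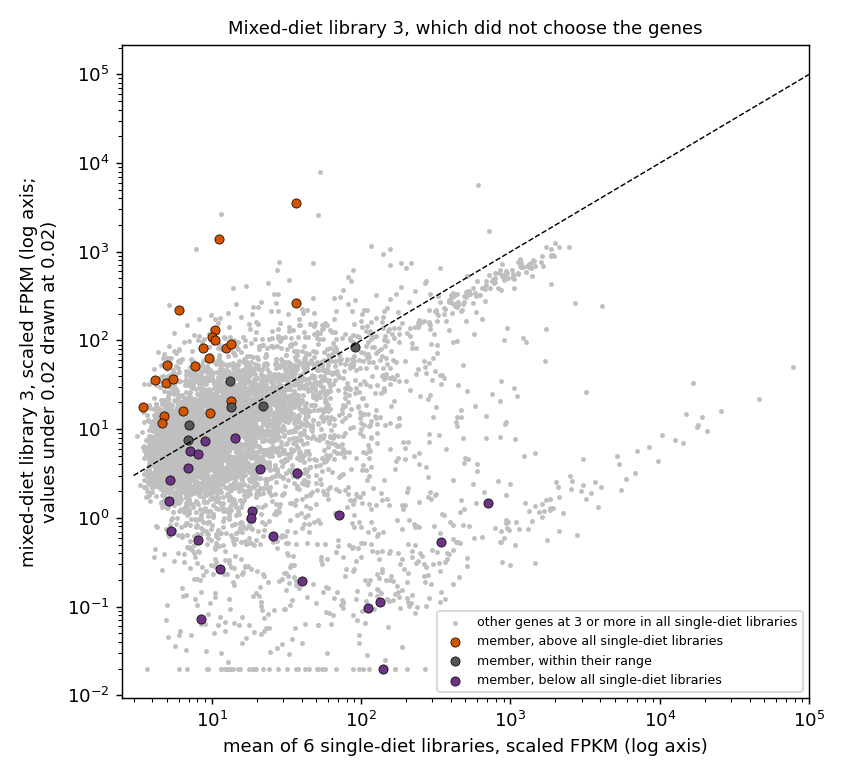
Level in mixed-diet library 3 (vertical) against the mean of the 6 single-diet libraries (horizontal), both in scaled FPKM on log axes, for the 51 members (coloured) and the other genes at 3 or more in all single-diet libraries (grey); the dashed line marks equal levels and values under 0.02 are drawn at 0.02. The 22 members above all single-diet libraries reach 3556, and the 23 below them reach down to a gene with 0 reads.

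How far mixed-diet library 3 lay to one side depended on its scaling. Scaled by a trimmed mean of ratios, it was below all single-diet libraries in 23 of the 51 members (57.5% of the 5875 genes) and above all in 20 (13.1%). In FPKM as deposited it was below in 16 (23.4%) and above in 29 (50.6%). The count at 5 times or more above was 4 with the trimmed mean (0.766%) and 17 as deposited (5.16%). It was 15 (2.23%) with earthworm library 1 left out. The members' share above all single-diet libraries was 39.2% with the trimmed mean and 56.9% as deposited, the second near that of all genes.

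**Figure D3:**
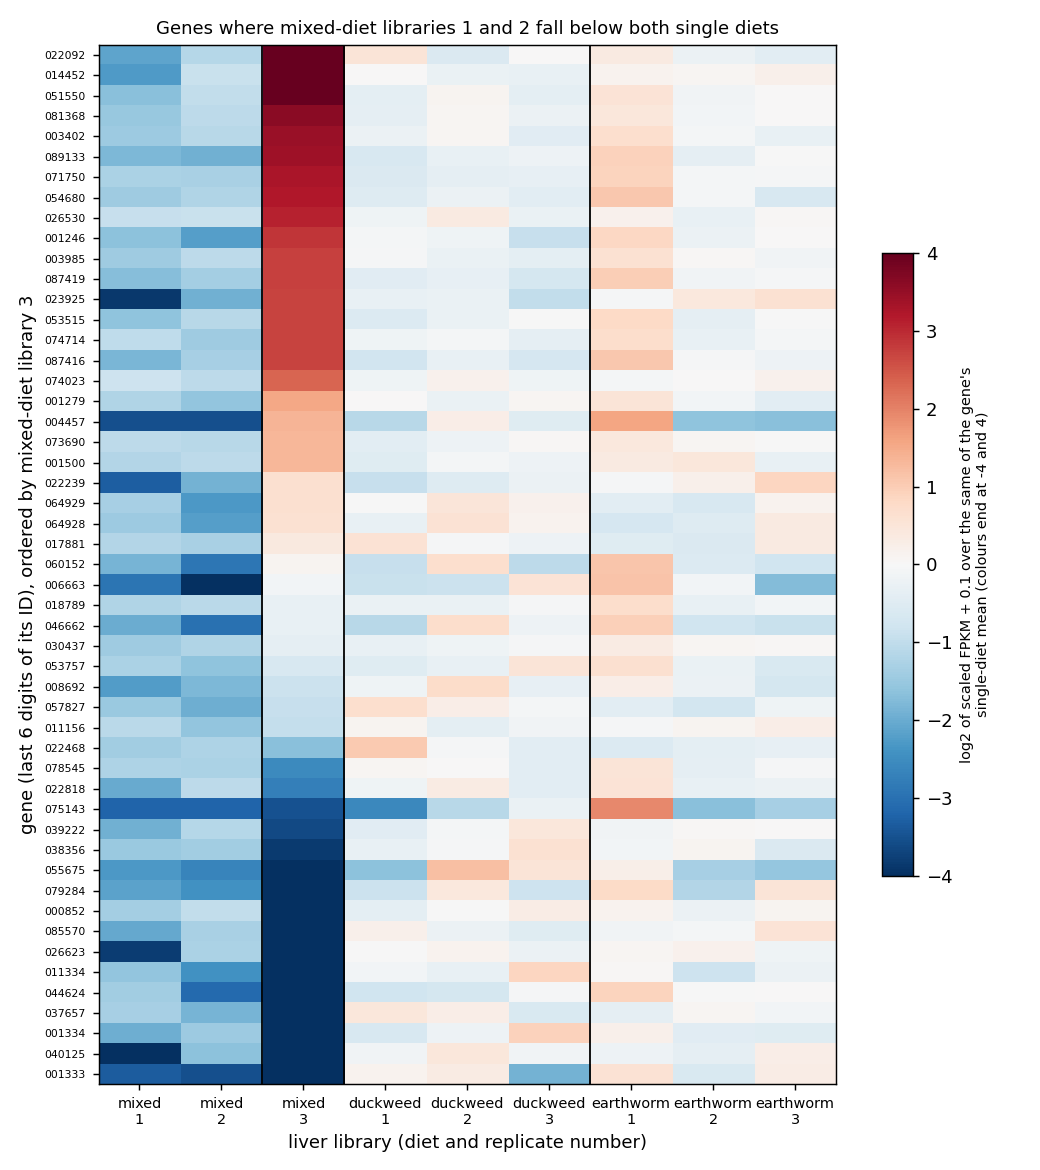
The 51 members (rows, ordered by mixed-diet library 3) in the 9 libraries (columns), coloured by the log2 of scaled FPKM + 0.1 over the same quantity for the gene's single-diet mean. Mixed-diet libraries 1 and 2 are blue throughout, as chosen, mixed-diet library 3 runs from red in the 22 members above all single-diet libraries to blue in the 23 below them, and earthworm library 1 is the most often red of the single-diet libraries.

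Among the single-diet libraries, earthworm library 1 held the highest value of a member most often. It was the highest of the 6 in 27 of 51 members (52.9%), against 27.2% of the 5875 genes. The rule uses the lowest of the 6 and, in the drop for a difference between the diets, the means and ranges of both diets, so these shares are a description and not independent of it. The median member lay 0.41 above its single-diet mean on the log2 scale in earthworm library 1, and 0.30 below to 0.04 below it in the other 5. Duckweed library 1 was the lowest of the 6 in 18 members (35.3%), against 17.3% of the 5875 genes.

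The lead of earthworm library 1 was also counted by the position of mixed-diet library 3. Earthworm library 1 was the highest of the 6 in 14 of the 22 members (63.6%) in which mixed-diet library 3 was above all of them, against 26.9% of the 1545 genes with that position. It was so in 4 of the 6 members (66.7%) with mixed-diet library 3 within their range, against 25.6% of 1818 genes. It was so in 9 of the 23 members (39.1%) with mixed-diet library 3 below, against 28.5% of 2512 genes. These counts by position were made with median scaling alone and in few members each, so nothing is read from their differences. Earthworm library 1 had the fewest reads, 9915585, and the smallest scaling divisor, 0.771. In FPKM as deposited it was the highest in 15 members, against 7.56% of the 5875 genes, and with the trimmed mean in 30, against 29.9%. Without earthworm library 1 the rule gave 66 genes, 43 of them among the 51.

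**Figure D4:**
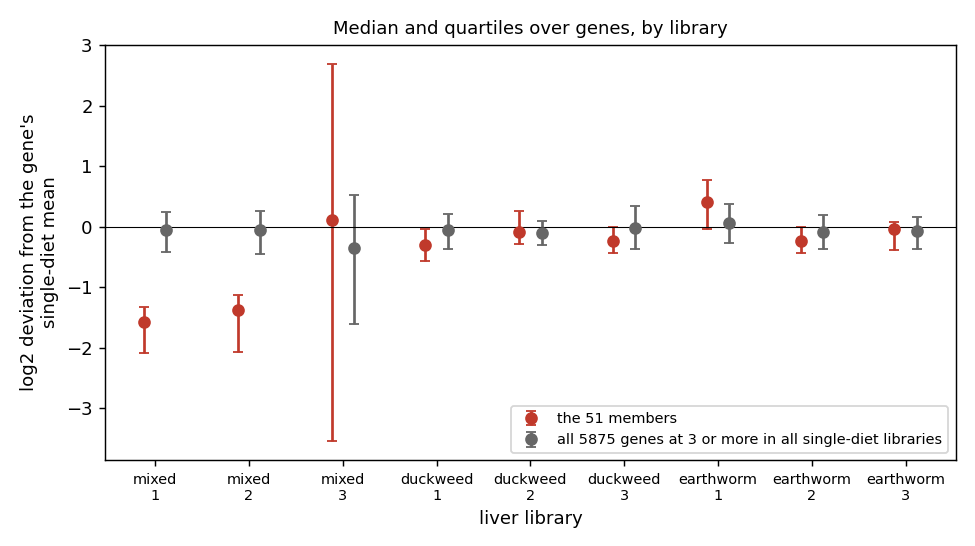
Median (point) and quartiles (bars) over genes of the log2 deviation from each gene's single-diet mean, by library, for the 51 members (red) and all 5875 genes at 3 or more in all single-diet libraries (grey). The members' medians are -1.58 and -1.38 in mixed-diet libraries 1 and 2, which the choice sets, and 0.41 in earthworm library 1, against 0.07 there for all 5875 genes.

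The comparison of duckweed with earthworm is given for these genes as a description. The rule had used the same single-diet libraries, so the members' p-values here and below are not independent of the choice. The rule removed genes with a 2-fold difference without overlap, so members with a difference of that size have diets that overlap. The limma fit called 0 of the 51 members and 0 of all 21542 genes (0%). At an unadjusted p under 0.05, 1 member was higher and 2 were lower on duckweed, while 497 (2.31%) of all genes were higher and 590 (2.74%) lower. The smallest adjusted p of a member was 0.96 (limma, Benjamini-Hochberg). In FPKM as deposited the median log2 fold change of all genes was 0.14, against -0.01 after scaling, so directions are given after scaling.

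The members' log2 fold changes of duckweed against earthworm had a median of -0.22 with a median SE of 0.33, against -0.01 over all genes tested. They were below 0 in 35 of 51 members, against 51.4% of all genes tested, a wider base than the 5875 genes. By means of scaled FPKM, duckweed was below earthworm in 36 of 51 members (70.6%), against 52.6% of the 5875 genes. Without earthworm library 1 the members' median log2 fold change was 0.01 and 25 of 51 were below 0, against 55.4% of all genes tested. With trimmed-mean scaling 30 of 51 were below 0, against 44.3% of all genes tested, and in FPKM as deposited 26 of 51, against 32%. Every duckweed library was below every earthworm library in 8 members (15.7%), against 5.62% of the 5875 genes, and above each of them in 1 (1.96%), against 4.24%. With trimmed-mean scaling the lower members numbered 4 (3.34% of the 5875 genes) and the higher ones 2 (6.2%). As deposited, the lower ones numbered 3 (2.55%) and the higher ones 0 (10.1%). The 5875 genes still hold genes with a 2-fold difference between these diets without overlap, which the rule dropped from the members. Both of the 2 dropped genes had every duckweed library above every earthworm library, so these shares are not independent of the choice.

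The lowest fold changes on duckweed were in CAFS_CommonC_G_075143 and CAFS_CommonC_G_044624. CAFS_CommonC_G_075143 was at 6.10, 17.1 and 30.9 scaled FPKM on duckweed and at 141, 11.6 and 14.6 on earthworm. The diets overlapped, and the high earthworm mean came from library 1. Its log2 fold change was -0.92 (SE 0.88, adjusted p = 0.999, limma) and turned to 0.20 with earthworm library 1 left out. The 3 duckweed libraries of CAFS_CommonC_G_044624, given above, all lay below its earthworm libraries, with a log2 fold change of -0.82 (SE 0.46, adjusted p = 0.986, limma), or -0.52 without earthworm library 1.

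The highest fold changes on duckweed were in CAFS_CommonC_G_055675 and CAFS_CommonC_G_057827. CAFS_CommonC_G_055675 was at 5.78, 42.7 and 26.3 scaled FPKM on duckweed and at 21.8, 7.24 and 6.27 on earthworm, with overlap, and its log2 fold change was 0.86 (SE 0.67, adjusted p = 0.995, limma). That value was 0.30 without duckweed library 2, 1.64 without duckweed library 1, 1.39 without earthworm library 1 and 0.55 without earthworm library 3. CAFS_CommonC_G_057827 was at 11.1, 8.39 and 6.49 scaled FPKM on duckweed and at 5.17, 4.11 and 6.12 on earthworm. It was the 1 member with every duckweed library above every earthworm library, and its log2 fold change was 0.64 (SE 0.28, adjusted p = 0.96, limma). Its mixed-diet libraries 1 and 2, at 2.41 and 1.71 scaled FPKM, rested on 13 and 10 reads.

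Single-diet libraries spread about as widely in the members as in the 5875 genes. The rule used the lowest of these libraries and dropped genes for a diet difference, so the likeness is not independent of the choice. The highest of the 6 was 1.28 to 23.2 times the lowest, with a median of 2.29, against 2.17 over the 5875 genes. The coefficient of variation over the 6 libraries had a median of 32.6% in the members and 28.9% over the 5875 genes. CAFS_CommonC_G_075143, at 140.3%, was the least steady member.

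In the same rule turned round, the lower of mixed-diet libraries 1 and 2 was 3 or more and at least 1.5 times the highest single-diet value. This gave 35 genes. The single-diet libraries then had no level to reach, and only 16 of the 5875 genes (0.272%) met the turned fold. The 5875 genes are thus not the base of the 35, and shares over their own base were not computed. Mixed-diet library 3 was below all single-diet libraries in 10 of those 35 (28.6%) and above all in 11 (31.4%), and 5 times above the highest in 0. Earthworm library 1 was the highest single-diet library in 10 of the 35 (28.6%). The difference between the 2 sets in these shares was not tested.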

How the data were processed

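Per the file headers, the authors deposited 1 FPKM value per gene ID and library. The submitters' processing notes name HTSeq 0.6.0. The aligner, build, annotation and strand were not given in the sources used here, so how reads of near-identical or overlapping genes were assigned is not known. Titles gave the diet and number of each library. The members and lists were chosen with earlier results of these data known.

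Library totals and gene lengths were worked out from the steps of the FPKM values (lengths of 60 to 40000 bases, tolerance 0.02 reads), and the recovered reads summed to 99.75% to 99.99% of the totals. Counting limits cover counting error only. FPKM was divided by the library's median over 11584 genes at FPKM 1 or more in all 8 libraries, times the mean of the 8 medians, and mixed-diet library 3 by its own median over the same genes. Diet means of log2(scaled FPKM + 1) in 8 libraries were fitted with limma 3.58.1 (R 4.3.3), with trend and robust options, for genes at scaled FPKM 1 or more in at least 2 libraries. Tests were two-sided, with Benjamini-Hochberg adjustment over all genes and a threshold of 0.05. The fit was also run on simulated data with the same fixed spread for every gene, so its power in these libraries was not measured. Values were otherwise computed with Python 3.11.15.

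Named IDs followed a rule: the 2 members with the largest ratio, the genes on either side of the fold, the 2 most abundant members, the 2 highest and 2 lowest in mixed-diet library 3 relative to the single diets, the 2 highest and 2 lowest in duckweed against earthworm, and the 2 with the least spread. Alternatives were trimmed-mean scaling (30% of ratios and 5% of levels trimmed at each end) and FPKM as deposited. Further ones were other folds, floors and pseudocounts, no filter, no robust option, a replicate block, all 9 libraries, and each library left out.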

Additional observations from a re-analysis of the deposited data

How the results depend on the processing

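The choice of the 51 genes depended on its settings. It gave 8 genes with a fold of 2 and 102 with a lower fold, 124 with a level of 1 and 15 with a level of 10, and 18 with mixed-diet library 3 included. Trimmed-mean scaling gave 37 genes, 34 of them among the 51, and FPKM as deposited gave 69, 47 of them among the 51. Leaving out 1 library gave 54 to 211 genes: 192 and 211 without mixed-diet library 1 or 2, which the rule then holds to a single library, and 100 without earthworm library 2. Without duckweed library 2 or 3 it gave 54 and 71, with 49 and 44 of the 51. The alternatives for the counts of members above all or 5 times above all in mixed-diet library 3, highest in earthworm library 1, apart between duckweed and earthworm, or with a fold change below 0 were chosen after seeing the data, as were those for the ratios of single genes.

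Shares of the 5875 genes follow in brackets. Members below all single-diet libraries in mixed-diet library 3 numbered 23 in each of the 6 sets without 1 single-diet library (43.5% to 44.7%). They numbered 16 in FPKM as deposited (23.4%). Members 5 times or more above all single-diet libraries numbered 4 with trimmed-mean scaling (0.766%) and 17 as deposited (5.16%). Without 1 single-diet library they numbered 8 to 15 (1.72% to 2.23%). In the same order, members lower in every duckweed library numbered 4 (3.34%), 3 (2.55%) and 9 to 12 (8.15% to 14.4%). Those higher in every duckweed library numbered 2 (6.2%), 0 (10.1%) and 1 to 5 (7.11% to 10.5%). The drop of genes for a difference between the single diets bears on both of these counts. Members highest in earthworm library 1 numbered 15 as deposited (7.56%) and 28 to 30 without 1 other single-diet library (28.0% to 35.0%). limma called 0 genes in every other setting, except 0 to 1 for the mixed diet and 0 to 16 for duckweed against earthworm without 1 library; the 16 came without earthworm library 3 and held 0 of the 51. The fold change of CAFS_CommonC_G_075143 on duckweed lay between -1.56 and 0.20 without 1 library, above 0 only without earthworm library 1.

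With the replicate number as a block, limma called 0 genes in both comparisons, with 999 genes for the mixed diet and 992 for duckweed at an unadjusted p under 0.05, against 1325 and 1087 without it. Same-numbered libraries of different diets deviated from their diet means with correlations of -0.399 to -0.005, and differently numbered ones with -0.184 to 0.336. Mixed-diet libraries 1 and 2 mirror each other here, since each is taken from the mean of that pair. No same-numbered correlation was above 0, but with so few libraries per diet the check cannot decide whether the numbers pair them.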

Other observations

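Among the 51 members, 2 pairs had consecutive ID numbers. The share of such pairs over all genes was not computed, so nothing is read from the count. The sources used here do not say whether numbers follow genome position. CAFS_CommonC_G_064928 was at 4.81 and 2.86 scaled FPKM in mixed-diet libraries 1 and 2, and CAFS_CommonC_G_064929 at 3.85 and 1.90. On duckweed the first was at 10.95, 19.99 and 14.98 and the second at 9.56, 13.6 and 11.1 scaled FPKM, and on earthworm the first was at 8.36, 9.36 and 17.2 and the second at 7.17, 6.27 and 10.7. Both had their highest earthworm value in library 3 and their highest duckweed value in library 2. CAFS_CommonC_G_001334, numbered next to CAFS_CommonC_G_001333, had 28.8 and 40.2 scaled FPKM in mixed-diet libraries 1 and 2, 71.2, 97.6 and 212 on duckweed and 127, 80.6 and 78.8 on earthworm. In duckweed library 3, where CAFS_CommonC_G_001333 was lowest of its single-diet libraries, CAFS_CommonC_G_001334 was highest. Both were at 2 reads or fewer in mixed-diet library 3. These IDs were chosen after their values were seen.

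The 2 genes dropped for a difference between the single diets were both higher on duckweed. CAFS_CommonC_G_071996 was at 8.52 and 9.92 scaled FPKM in mixed-diet libraries 1 and 2, 87.8, 42.6 and 39.2 on duckweed and 19.5, 20.5 and 39.0 on earthworm. CAFS_CommonC_G_089847 was at 11.5 and 11.1, 222, 136 and 105, and 46.3, 21.8 and 101 scaled FPKM in the same order of libraries.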
